A study of Danio rerio with 48 samples.

Results

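The transcripts described here were strongly lowered in zebrafish exposed to chromium and were not lowered by 0.5 log2 units or more at high nickel or high cobalt. They number 59 of the 21903 transcripts on the array, or 0.627% of the 9416 whose mean reached log2 6.5 in at least 1 group. They were selected on their measured log2 intensities. Probes of a transcript were averaged, and a difference was taken between the mean log2 level of an exposed group and that of the 4 control arrays of its metal. A member had a difference of -1.5 or less at low, mid and high chromium and above -0.5 at both high nickel and high cobalt. No upper bound was set, and members reached 0.99 at high nickel and 0.92 at high cobalt. The 5 differences of the rule are a description of how the members were picked, and no test of them is read as a result.

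The study exposed adult zebrafish, aged 6 to 9 months, for 24 h in flow-through aquaria and profiled pooled RNA of whole fish on one-colour arrays. Chromium was measured at 56.5, 69.9 and 80.6 mg/L, nickel at 42.4, 51.0 and 64.0 mg/L and cobalt at 39.7, 46.3 and 59.5 mg/L for low, mid and high, and controls received no metal. The 12 groups have 4 arrays each. The labels used here give no sex, strain or chemical form of the metal, nor whether pools of a group were exposed apart, so p-values here reflect differences among pools and their arrays, which can be technical. The controls labelled for nickel and for chromium were the same 4 RNA pools on 2 arrays each, while cobalt had 4 controls of its own.

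Metals taken up by fish through the gill and gut can change the transcription of many genes, and an RNA profile of a whole animal sums over all of its tissues. In such a sample, fewer cells of a type and less RNA per cell cannot be told apart. No table used here pairs the array's transcript IDs with gene symbols, so 0 IDs could be named, the roles of the members are not given, and the tissue label was not checked against marker genes. Members are numbered from 1, the lowest mean difference over the 3 chromium doses, to 59, and IDs are printed for 4 of them.

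All 48 arrays had median log2 intensities between 5.62 and 5.66, and 66.2% to 68.5% of their probes lay above log2 5. That level served as the background limit, since 95 of 96 readings of the 2 dark control features were at or below it. The members were well above it in the chromium-labelled controls. Their control means ran from 6.60 to 15.46 with a median of 9.15, on a scale that ends at 16. Of the 59, 17 had a control level of at least 10 and 17 were under 8.

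In chromium the members' median level was 24.6% of control at the low dose, 23.1% at mid and 23.4% at high. The median log2 difference was -2.02, -2.12 and -2.10, against 0.07, 0.06 and 0.05 over all 9416 transcripts at or above the minimum level. The drop was uneven among members. Averaged over the doses, 6 members were at -4 or lower, 5 between -4 and -3, 19 between -3 and -2 and 29 between -2 and -1.5. At all 3 doses 29 members were at least 4-fold lower. All 59 were called lower in each chromium dose by limma with Benjamini-Hochberg adjustment over all transcripts, at a threshold of 0.05, where 7.03%, 7.21% and 9.83% of all transcripts were called lower. The rule used these contrasts, and the counts follow from it. Scaling to spike-in control rows raised every log2 difference by 0.05, 0.07 and 0.15 at low, mid and high chromium and left 59 calls at each. In 58 members all 12 exposed arrays lay below all 4 controls, a separation found in 9.55% of the transcripts at or above the minimum level. The rule used all of these arrays, so nothing is read from that count either.

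**Figure D1:**
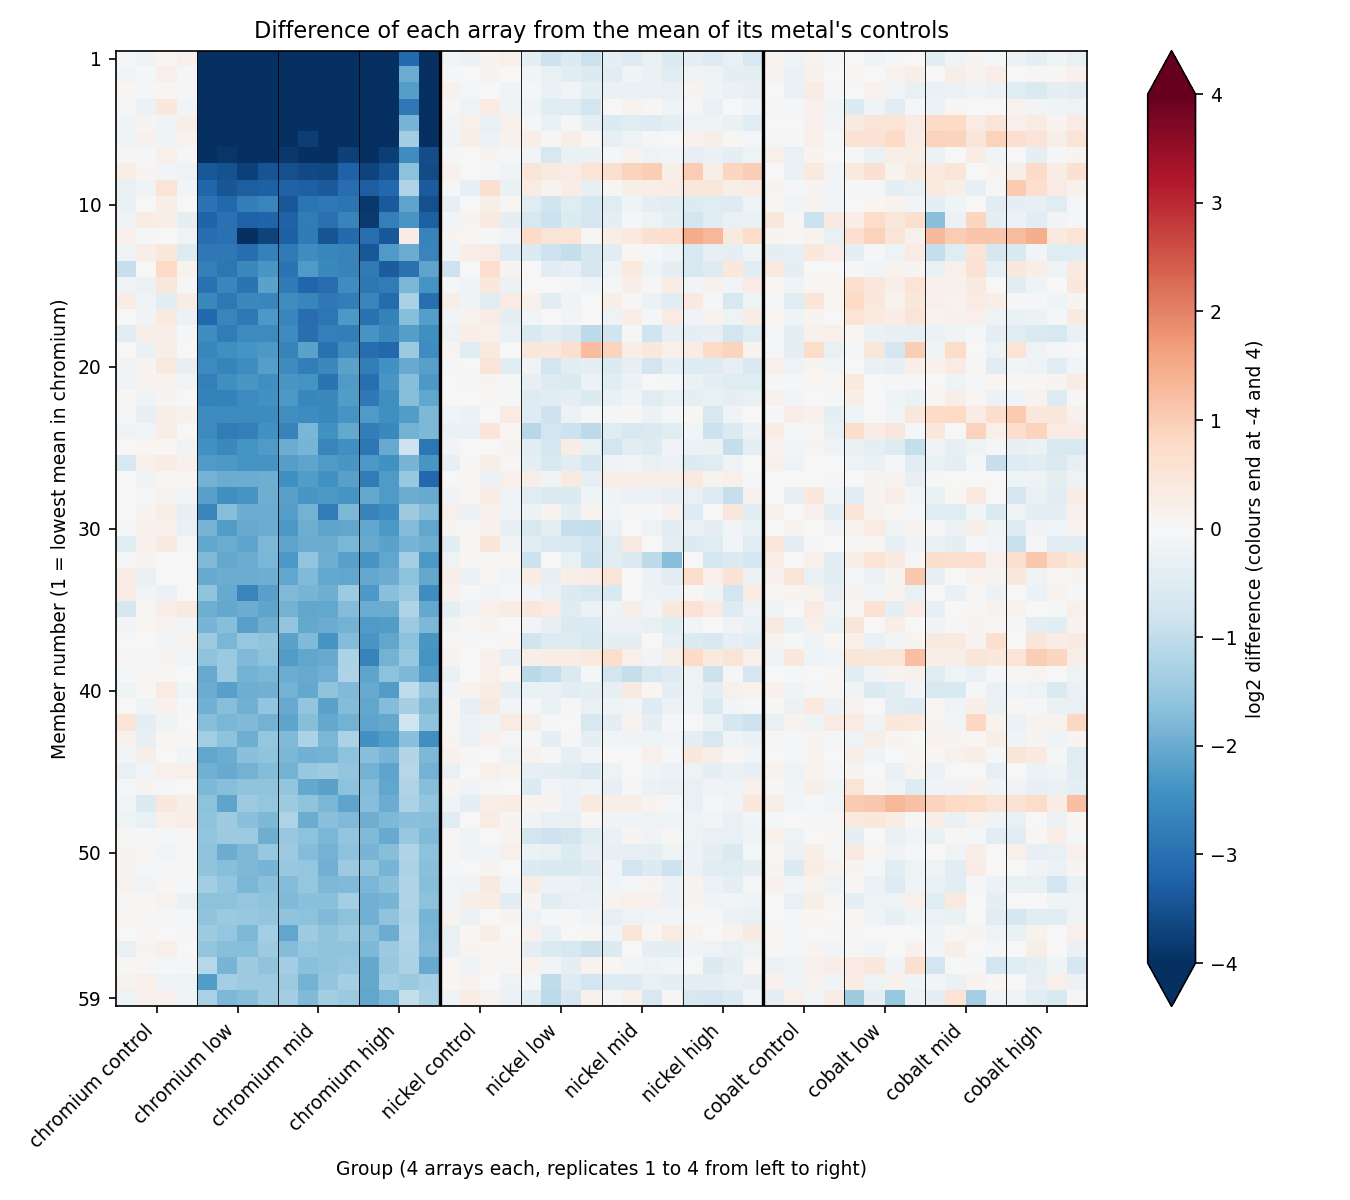
Log2 difference of every array from the mean of its metal's 4 controls, with the 59 members in rows by number and the 48 arrays in columns by group. Columns of exposed chromium arrays are blue in all members, except member 12 on replicate 3 of high chromium, which lies above control. That replicate is paler than its neighbours in most members.

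Member 1, ENSDART00000018409, had the largest loss of the 59. Its log2 intensity was 14.02, 13.96, 14.18 and 14.27 on the chromium-labelled controls. At low chromium it was 6.11, 4.94, 5.58 and 4.78, and at mid it was 5.08, 6.22, 4.94 and 5.36. At the high dose it read 4.77, 5.03, 10.99 and 4.84, so that replicate 3 alone stood far above background while still below every control. The differences of the means were -8.75, -8.71 and -7.70 at low, mid and high. With probe readings at or below log2 5 set to 5 they were -8.67, -8.69 and -7.58, the size that the background limit allows to be stated.

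Member 2, ENSDART00000053323, read 15.35, 15.40, 15.67 and 15.41 on the chromium-labelled controls. Low chromium left 8.85, 7.55, 8.43 and 7.96, and mid chromium left 7.57, 9.19, 6.91 and 8.16. Its high-dose arrays were 6.57, 8.13, 13.47 and 6.96. No exposed array reached a control, and none was at the background limit. The mean was 153-fold lower at low and 181-fold lower at mid chromium. Its control readings lie close to the ceiling of 16.

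Members 3 and 4 followed the same pattern. Member 3 averaged 13.74 ± 0.09 in the chromium-labelled controls and 7.14 ± 0.27 at low chromium (SD, n = 4 each), a 96.5-fold loss. Member 4 went from 11.69 ± 0.28 to 5.71 ± 0.33 (SD, n = 4 each), a 62.8-fold loss. Members 5, 6, 7 and 9 were 28.8, 24.0, 16.5 and 9.77 times lower at the low dose. Member 8 had 3 probe readings at or below the background limit there, and with these set to the limit it was at least 11.1-fold lower.

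Member 45 read 15.13, 15.29, 15.61 and 15.62 on the chromium-labelled controls, also close to the ceiling, and 13.48, 13.39, 13.53 and 13.69 at low chromium, a 3.71-fold loss. Its exposed nickel and cobalt groups averaged between 14.87 and 15.32. Member 10, at 13.59 ± 0.21 in controls, was at 10.70 ± 0.22, 10.57 ± 0.24 and 10.37 ± 0.77 at low, mid and high chromium (SD, n = 4 each).

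**Figure D2:**
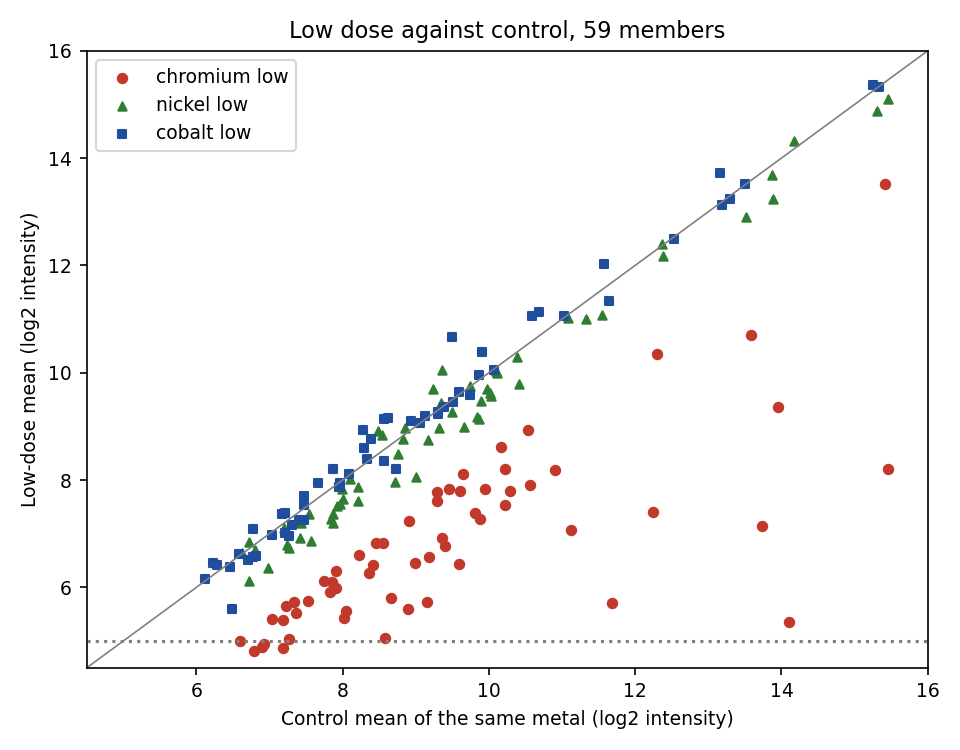
Mean log2 intensity of the 59 members at the low dose of each metal against the control mean of the same metal, with the line of equal values and the background limit of log2 5 dotted. Chromium points lie below the line at every control level, from 6.60 to 15.46. Nickel points differ from it by -0.94 to 0.70 and cobalt points by -0.89 to 1.16.

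The dimmest members reached background in chromium. Of the 118 member probes, 8 were at or below log2 5 on all 4 arrays at low chromium, 7 at mid and 2 at high, against 0 on any chromium-labelled control array. Member 33 had both probes there on all 4 low-dose arrays, so from a control mean of 6.79 its log2 difference is known only as a bound, -1.79 or lower. Each member had 2 probes. Both met the chromium criterion in 40 members, and the largest gap between the probes of a member had a median of 0.33 log2 units and exceeded 1 in 9 members, with 2.01 in member 30.

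The differences between chromium doses are a description, since all 12 exposed chromium arrays entered the rule, which required the loss at each dose. Between low and mid chromium the members' median difference was 0.01, with 31 members higher and 28 lower at mid. From low to high it was 0.13, with 40 higher and 19 lower. The limma fit called 0 members in either comparison, where 0% and 0.507% of all transcripts were called, and 1 and 5 members had an unadjusted p under 0.05, against 7.99% and 11.5% of all transcripts. The direction from low to high rested on 1 array. Without high replicate 3 the median was -0.11, with 42 members lower and 17 higher, and the fit called 3 members, against 1.24% of all transcripts.

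That array, high chromium replicate 3, retained more of nearly every member than the other 3 high arrays. It lay above the mean of the other 3 in 57 of 59 members and above each of them in 54. The matching shares of all transcripts are not given here and the rule used this array, so these counts are a description. The median excess was 0.71 log2 units, ranging from -0.22 in member 14 to 6.24 in member 2. On the linear scale it made up a median of 17.3% of the gap between the other 3 arrays and the controls, with quartiles of 10.9% and 23.2%. Among the first 9 members the share ran from 11.4% to 37.3%. Those 9 were 2.28 to 8.69 times lower than control on replicate 3 and 9.60 to 535 times lower on the mean of the other 3, with probe readings at or below log2 5 set to 5. Readings at that limit occurred in members 1 and 8, whose folds are therefore at least 535 and 10.9. Member 12 was an exception, above control on replicate 3 at 9.44, while the other high arrays read 6.14, 5.77 and 6.48 and the controls 9.00 to 9.36.

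**Figure D3:**
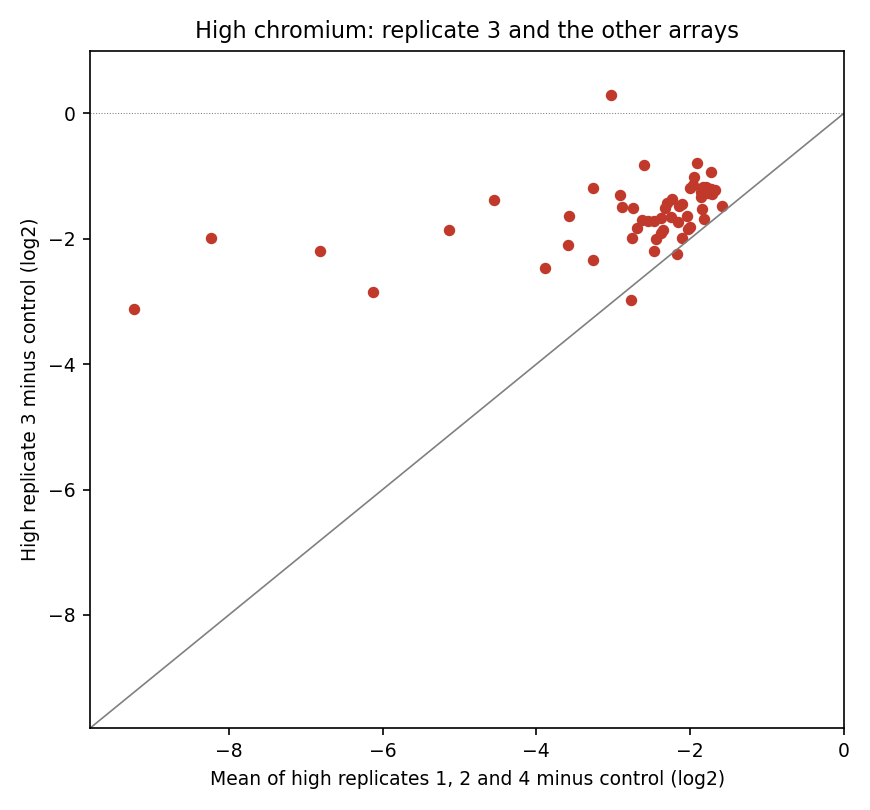
Log2 difference from the chromium-labelled control mean on high chromium replicate 3 (vertical) against the mean difference of high replicates 1, 2 and 4 (horizontal), one point per member, with the line of equal values. Points lie above the line in 57 of 59 members, and 1 point, member 12, is above 0.

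The same array was shifted in other transcripts. Of the 130 transcripts that were also lowered to -1.5 or less at all chromium doses but fell to -0.5 or less in high nickel or high cobalt, 122 were above the mean of the other 3 high arrays on it, with a median excess of 0.81 and 14.6% of the gap. The 30 transcripts raised by 1.5 or more at all chromium doses were lower on it by a median difference of -0.27. What set this array apart was not tested.

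**Figure D4:**
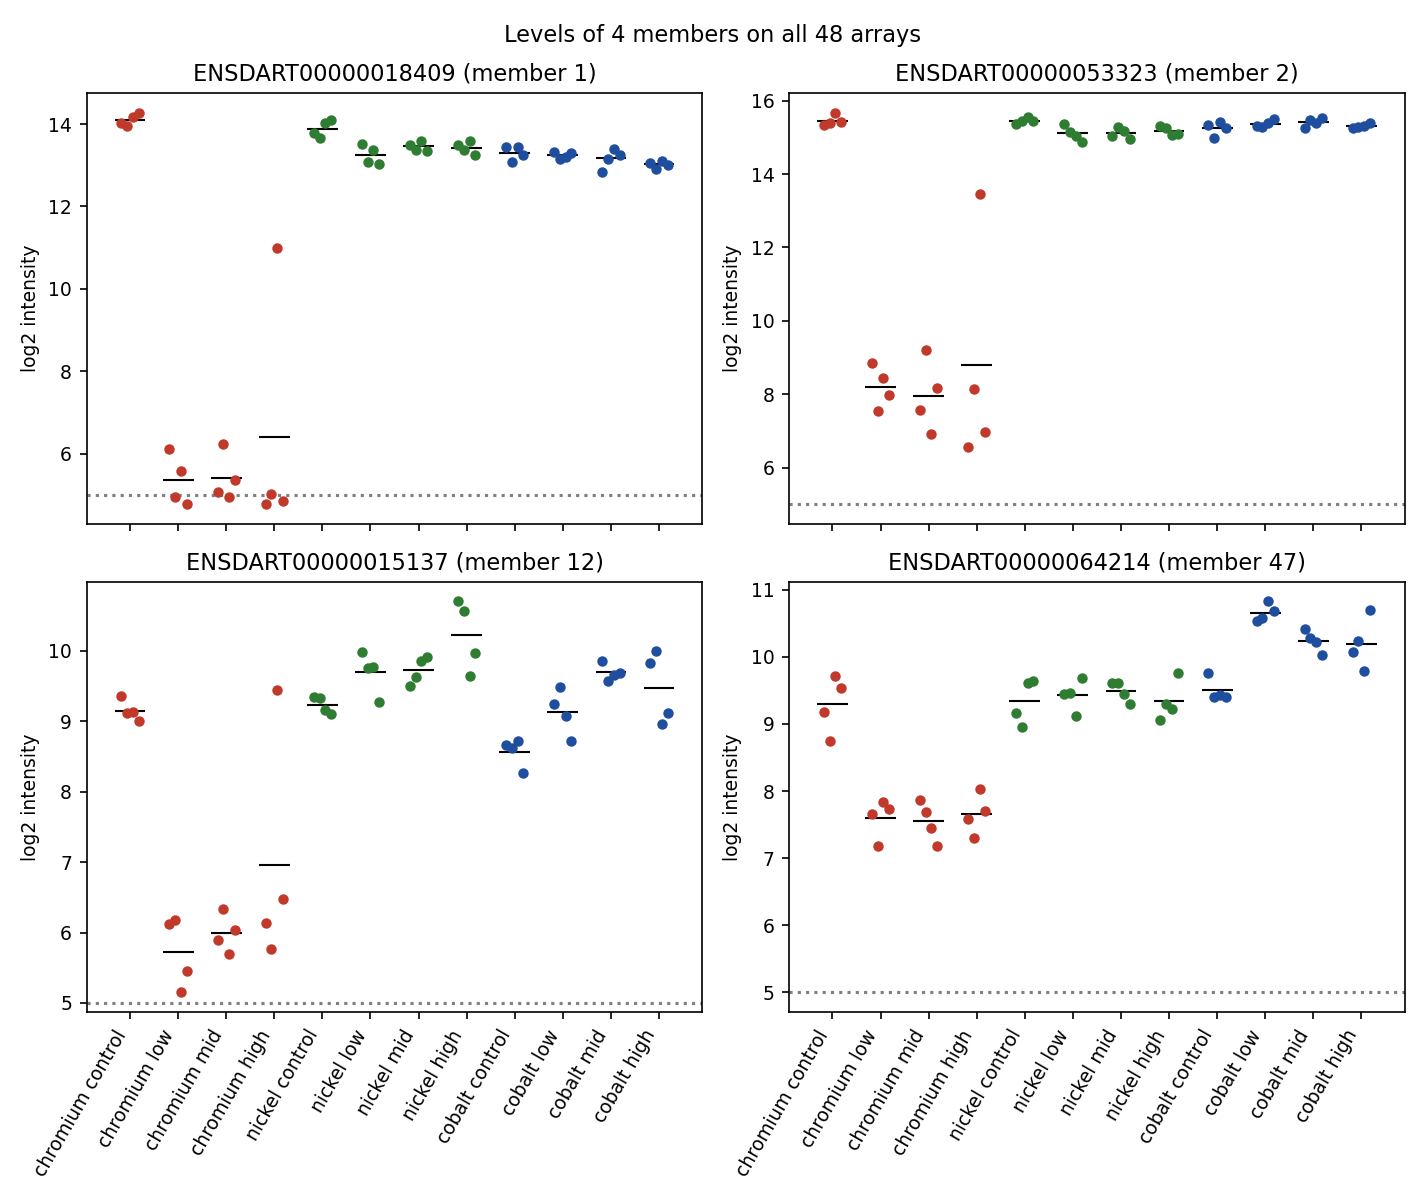
Log2 intensity of 4 members on all 48 arrays, with points for arrays, bars for group means and the background limit of log2 5 dotted. ENSDART00000018409 and ENSDART00000053323 drop in chromium. In nickel their group means differ from control by -0.65 to -0.44 and by -0.34 to -0.27. In cobalt the differences are -0.27 to -0.06 and 0.07 to 0.16. ENSDART00000015137 and ENSDART00000064214 drop in chromium and stand above their controls in cobalt.

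At high nickel, which the rule used, the members' differences ran from -0.50 to 0.99, with the lower end set by the rule. They ran from -0.94 to 0.70 at low nickel and from -0.94 to 0.69 at mid. Low and mid nickel were not used by the rule, although they share its control arrays. The RNA pools of those arrays are also the pools of the chromium-labelled controls, in which the rule favours transcripts that are high. How far this lowered the nickel differences was not tested. The medians at low and mid nickel were -0.34 and -0.15, against -0.01 and -0.02 over the transcripts at or above the minimum level. The members' median at high nickel was -0.22. At low nickel 16 members were below -0.5, the lowest of them member 24 at -0.94, and at mid nickel 4 were. So some members named as kept in nickel were moderately lower at its low dose. The share of all transcripts below -0.5 is not given here, so no excess among members is read from these counts.

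The limma fit called 23 members lower and 0 higher at low nickel, where 6.51% of all transcripts were called lower and 7.1% higher. All transcripts include those under the minimum level, which members had to pass. Without the dimmest 25% of transcripts, 9.12% of those kept were called lower and 9.76% higher, and 24 members were called. At mid nickel the fit of all transcripts called 7 members lower and 1 higher, against 4.99% lower and 6.09% higher. High nickel gave 8 lower and 2 higher, against 6.82% and 8.09%. In all 26 members were called lower in at least 1 nickel dose, against 9.33% of all transcripts, and 3, members 1, 22 and 51, in all of them, against 3.39%. High nickel entered the rule, and nothing is read from the counts over the 3 doses. These counts depend on the scaling. Scaling to the spike-in rows instead raised all log2 differences by 0.05, 0.20 and 0.21 at low, mid and high nickel. It also changed the SE, in nickel from 0.12 to 0.16 for member 1 and from 0.10 to 0.12 for member 2. The calls became 13 lower and 1 higher, 1 lower and 3 higher, and 0 lower and 6 higher. How far the shift and the SE each moved the calls was not tested. Over all transcripts that scaling called 2.68% lower and 5.19% higher, 0.936% and 10.4%, and 1.41% and 12.8%. The median at mid nickel then turned to 0.05 and that at high to -0.01. The mid-nickel count of 8 was 14 without control replicate 1, 4 without control replicate 3 or mid replicate 4, and 5 without control replicate 4 or mid replicate 3, while 8.22% to 9.79% of all transcripts were called without these arrays.

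Member 1 read 13.79, 13.66, 14.01 and 14.10 on the nickel-labelled controls and 13.51, 13.07, 13.36 and 13.03 at low nickel, with no overlap. The difference was -0.65 ± 0.12 (SE), limma adjusted p 0.00169, and under spike-in scaling -0.59, adjusted p 0.0216. At mid and high nickel the differences were -0.44 and -0.47, adjusted p 0.0265 and 0.0137, and under spike-in scaling they were -0.23 and -0.26 and passed no more, with adjusted p 0.288 and 0.24. Mid nickel also missed the threshold without nickel control replicate 3 or 4 or mid replicate 2 or 4, with adjusted p between 0.0627 and 0.0855. With all 48 arrays in a single fit the 3 nickel calls of member 1 were lost, adjusted p 0.632, 0.799 and 0.76. There its differences were unchanged and their SE was 0.63 in place of 0.12, as that fit takes the spread over all metals. The SD of member 1 was 3.06 at high chromium, where replicate 3 read 10.99. It was 0.14 to 0.61 in the other chromium groups and 0.08 to 0.24 in the nickel and cobalt groups. Member 2 had differences of -0.34 at both low and mid nickel, adjusted p 0.0258 and 0.0336, and under spike-in scaling of -0.29 and -0.14, adjusted p 0.195 and 0.399. Those 2 calls were also lost without single arrays: at low nickel without control replicate 2, 3 or 4 or low replicate 3 or 4, and at mid nickel without control replicate 2, 3 or 4 or mid replicate 1, 3 or 4.

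Mid against low nickel is a comparison with no array that the rule used. Here 1 member was called, where 0.0228% of all transcripts were. Member 49 read 6.84, 6.73, 6.84 and 7.07 at low nickel and 7.29, 7.67, 7.43 and 7.60 at mid, which did not overlap. It was higher at mid by 0.63 ± 0.09 (SE), limma adjusted p 0.0338. The call was lost with the replicate number as a block and with probes fitted singly, where both probes had to be called. It was also lost without any 1 of low replicates 1, 2 or 3 or mid replicates 2, 3 or 4. At an unadjusted p under 0.05, 15 members were higher at mid and 2 lower, 17 in all, against 7.50% of all transcripts. High against low nickel gave 0 calls among members and 0% of all transcripts, with 8 members higher at an unadjusted p under 0.05, against 7.68% of all transcripts in either direction.

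In cobalt the members' medians were 0.03, -0.02 and -0.07 at low, mid and high. Over the transcripts at or above the minimum level the medians were -0.02, -0.03 and -0.02. The rule used high cobalt, and low and mid cobalt share its control arrays, so nearness to control is a description. In 52, 53 and 52 members the difference lay between -0.5 and 0.5, a description, since the share of all transcripts is not given here. The fit called 1 member lower and 4 higher at low cobalt, where 4.4% and 5.25% of all transcripts were called. Mid cobalt had 0 lower and 5 higher, against 5.71% and 6.25%, with 5 lower and 7 higher at an unadjusted p under 0.05, against 23.0% of all transcripts. High cobalt, used by the rule, had 7 lower and 7 higher, against 9.41% and 9.51%. Spike-in scaling raised all differences at high cobalt by 0.25 and also changed their SE. The split at high cobalt then became 0 lower and 12 higher, against 3.99% and 40.6% of all transcripts, and the median turned to 0.18. The median at mid cobalt turned to 0.03. Mid against low cobalt, which used no array of the rule, called 0 members and 0% of all transcripts. At an unadjusted p under 0.05 it had 7 members lower and 5 higher, against 4.94% of all transcripts. High against low cobalt called 0 members, against 0.863%, with 13 members lower and 4 higher at an unadjusted p under 0.05, against 12.3% of all transcripts. Without low replicate 4 it called 2 members and 1.02% of all transcripts, and without high replicate 4 it called 5 and 1.71%. The count of 5 at low cobalt was 3 without control replicate 1, against 7.65% of all transcripts, and that at mid was 9 without mid replicate 3, against 12.2%. The count of 14 at high was 7 without control replicate 1, 8 without control replicate 3 and 9 without high replicate 2 or 3, where 15.5% to 16.5% of all transcripts were called.

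In cobalt 10 members were called higher in at least 1 dose, against 10.5% of all transcripts, and the rule bounded high cobalt from below, so nothing about the members is read from that count. Both IDs named here were chosen after their values were seen, as the members with the highest mean difference over low and mid nickel and cobalt. Member 47, ENSDART00000064214, was at 9.76, 9.40, 9.44 and 9.40 in cobalt controls and at 10.54, 10.58, 10.83 and 10.69 at low cobalt. All 12 exposed cobalt arrays lay above its 4 controls. The differences were 1.16, 0.74 and 0.70 ± 0.15 (SE) at low, mid and high, limma adjusted p 0.000155, 0.00458 and 0.00443. In nickel it was at 0.09, 0.15 and -0.01 from control, with adjusted p of 0.72 or higher, and in chromium at -1.69, -1.75 and -1.64.

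Member 12, ENSDART00000015137, was lower in chromium and was called higher at mid and high cobalt and high nickel. In chromium its differences were -3.43, -3.16 and -2.20. At mid cobalt it read 9.86, 9.58, 9.67 and 9.68 against 8.66, 8.62, 8.72 and 8.26 in controls, higher by 1.13 ± 0.21 (SE), limma adjusted p 0.00228. At high cobalt it was higher by 0.92, adjusted p 0.00657, and at high nickel by 0.99, adjusted p 0.00342. Mid nickel, at 0.49 with adjusted p 0.157, did not pass, nor did the low doses of cobalt and nickel, at 0.57 and 0.46. Under spike-in scaling mid nickel was at 0.69 and passed, limma adjusted p 0.00882. The low doses of cobalt and nickel were then at 0.64 and 0.52, adjusted p 0.0577 and 0.0703, and did not pass. With all 48 arrays in a single fit the high cobalt and high nickel calls were lost, adjusted p 0.0931 and 0.0958. Members 5 and 6 were called higher at low cobalt by 0.45 and 0.56 and at mid cobalt by 0.60 and 0.80, and member 6 also at high by 0.47. Both carry a suffix in their probe names that 8 members share and whose meaning the labels do not explain. Their array-to-array deviations ran together (r 0.76 over 16 arrays). Other pairs of members ran together more closely, such as 11 and 13 (r 0.85). Whether members 5 and 6 are separate responses was not tested.

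The cobalt controls differed from the chromium-labelled ones. Members were lower there by a median of -0.45 log2 units, with 53 of 59 below 0 and 27 below -0.5, whereas 48.7% and 10.05% of the transcripts at or above the minimum level were. Both control sets entered the rule, which favours transcripts high in the chromium-labelled controls and low in the cobalt and nickel-labelled ones, so these shifts are a description. Member 1 averaged 13.30 ± 0.17 in cobalt controls and 14.11 ± 0.14 in the chromium-labelled ones (SD, n = 4 each). Spike-in rows read 8.69 in cobalt controls and 10.96 in chromium-labelled controls, and the parts of the fish and of the array set in these differences cannot be told apart. All differences from control are therefore within a metal. Nickel-labelled and chromium-labelled controls, the same pools, differed by a median of -0.01 over the members. With the pool as a block the fit called 5 members lower there, where 2.75% of all transcripts were, and 2 without it, counts from which nothing is read because the rule used these arrays too.

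Compared with the 130 other transcripts lost in chromium, the members had a similar loss there and less in the other metals, which the rule itself sets at the high doses. The 130 had medians of -2.26, -2.27 and -2.20 at low, mid and high chromium. At low and mid nickel their medians were -0.59 and -0.57, and at low and mid cobalt -0.41 and -0.55. Of them, 28 were at -0.5 or lower in high nickel alone, 36 in high cobalt alone and 66 in both.

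**Figure D5:**
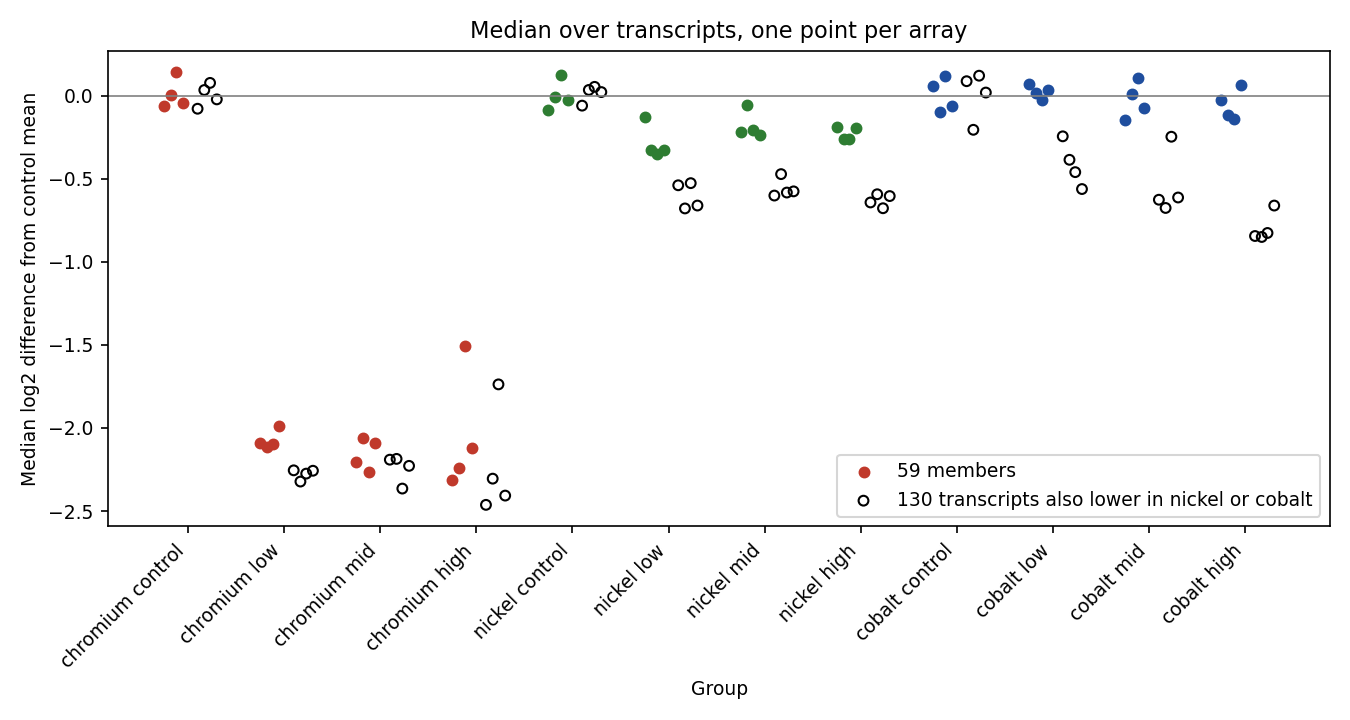
Median log2 difference from the control mean over the 59 members (filled) and over the 130 other transcripts lost in chromium (open), one point per array in 12 groups. Members lie between -2.31 and -1.51 at high chromium, where replicate 3 is the highest point.

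Outside chromium the members varied together only weakly from array to array. Over the 16 arrays of low and mid nickel and cobalt, which the rule did not use, deviations from group means had a median pairwise correlation of 0.10 among members, with 61.2% of pairs above 0. It was 0.20 among the 130 others, with 73.1% above 0, and 0.00 among all transcripts at or above the minimum level, with 49.96% above 0. Differences between arrays of a group can be technical, and no test was made. The highest values were 0.85 for members 11 and 13, 0.83 for members 15 and 17 and 0.82 for members 23 and 59.

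The border of the set was not a gap in the data. The members nearest the chromium threshold had a weakest difference of -1.51, -1.51, -1.52 and -1.54, and the nearest transcripts outside had -1.49, -1.49, -1.47 and -1.46. At the threshold for nickel and cobalt, the lower of the 2 high-dose differences was -0.50, -0.50, -0.50 and -0.49 just inside and -0.50, -0.51, -0.51 and -0.52 just outside. Across nickel and cobalt, 32 members stayed between -0.5 and 0.5 in all 6 groups, 18 were below 0 in all 6 and 4 were above 0 in all 6. The matching shares of all transcripts are not given here, so these counts are a description.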

How the data were processed

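Pooled whole-fish RNA was labelled with Cy3 and hybridised to one-colour arrays, per the labels' protocols. The authors deposited log2 intensity values. The sources used here do not state how background was corrected or arrays normalized, and the nearly equal array medians show only that the arrays were made comparable. Probes of a transcript were averaged (43714 probes, 21903 transcripts, 61 control rows left out). The number of arrays, 4 per group, limits the precision.

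limma 3.58.1 in R 4.3.3 (lmFit, eBayes) was run per metal on 16 arrays with a coefficient per group, with Benjamini-Hochberg adjustment across the 21903 transcripts and a threshold of 0.05. Shares of all transcripts printed beside member counts therefore include transcripts under the minimum level, which the members had to pass. The fit was tested on simulated data. Groups came from the labels. Same-numbered arrays correlated from -0.17 to 0.28, with 23.6% of values over 0.1, so replicate numbers were not taken as pairs, and the shared pools (r 0.59 to 0.73) were a block only where their 2 array sets were compared. No 2 arrays were identical.

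Members and lists were chosen with earlier results of these data known. With no gene names, IDs were printed for the 2 members with the lowest mean chromium difference and for 2 chosen after their values were seen. The 13 tissue and stress gene lists were not run for lack of gene names. Alternatives are given in the closing section.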

Additional observations from a re-analysis of the deposited data

Results flagged for a closer look

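Single arrays were compared with the rest of their group for the 4 named members and the member median in each of the 12 groups, 60 tests by Dixon's criterion, which chance would pass about 1 time in 20. In 3 of them 1 array stood apart, a share about equal to that chance rate. ENSDART00000018409 read 10.99 on high chromium replicate 3, while the other 3 arrays read 4.77 to 5.03, a gap of 0.959 of the whole range. The median difference over the members was -0.13 on low nickel replicate 1 and -0.35 to -0.33 on the others, a gap of 0.892 of the range. ENSDART00000064214 read 9.76 on cobalt control replicate 1 and 9.40 to 9.44 on the others, a gap of 0.899 of the range. Over all 59 members, 7 passed the criterion at high chromium, each time on replicate 3, and 2 to 5 did in each of the other groups. The criterion was run on members only, so no share of all transcripts is given and nothing is read from these counts.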

How the results depend on the processing

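Between 58 and 59 members were called lower against control at each chromium dose in the 24 alternatives run there, and leaving out any 1 array left 59. The rule used these contrasts, so nothing is read from these counts. Of 130 alternatives other than leaving out an array, 103 gave counts within 1.5 times those reported. The 103 include the 24 in chromium against control, which the rule fixed. They also include comparisons such as mid against low chromium, where both counts were 0, so nothing is read from that share. Scaling to the spike-in rows gave 14, 4 and 6 calls at low, mid and high nickel, against 7.88%, 11.3% and 14.3% of all transcripts. It gave 2 each for high against low chromium, mid against low nickel and high against low cobalt, against 0.895%, 0.119% and 3.62%. A single fit of all 48 arrays takes the spread over all metals, high chromium replicate 3 included. In nickel it gave 15, 4 and 3 at low, mid and high, against 12.8%, 10.3% and 14.1% of all transcripts. In cobalt it gave 3, 3 and 9 at low, mid and high, against 12.9%, 16% and 22.9%. High against low gave 1 each in chromium and cobalt, against 1.21% and 3.4%. With probes fitted singly, a member counted only if both of its probes were called in the same direction, a stricter criterion. That gave 11, 1 and 5 in nickel, 1 and 4 at low and high cobalt and 0 for mid against low nickel. The share of all transcripts under that criterion is not given here, so nothing is read from these counts. The replicate block gave 0 for mid against low nickel and 1 for high against low cobalt, against 0.00457% and 0.936% of all transcripts. It changed no other count by over 1.5 times. High against low cobalt was also 1 without the dimmest 25% of transcripts, against 1.66% of those kept. With trend and robust priors it was 1, against 1.12% of all transcripts. The shared controls gave 2 without the pool as a block, against 0.539%. The single fit leaves the differences from control as they are and changes their SE. What else lay behind these changes was not tested.

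Without 1 array the calls ran from 17 to 21 at low, 4 to 14 at mid and 7 to 13 at high nickel, and from 3 to 6, 4 to 9 and 7 to 13 at low, mid and high cobalt. They ran from 0 to 3 for high against low chromium, 0 to 5 for high against low cobalt and 0 to 1 for mid against low nickel. The number of members ran from 51 to 64, and was 120 with a chromium threshold of -1.0 and 29 with -2.0. It was 87 with spike-in scaling, 46 of them shared with the 59, and 57 with readings at or below log2 5 set to 5, which was chosen after seeing the data. The named members passed in chromium in all 180 alternatives. The rule had selected them on these contrasts, so nothing is read from this count. For nickel and cobalt, only comparisons that the named members had passed in the reported fit were followed. There they passed in 139 of 165 alternatives and turned direction in 0. In the single fit ENSDART00000018409 missed the threshold at low, mid and high nickel, adjusted p 0.632, 0.799 and 0.76, as did ENSDART00000053323 at low and mid nickel, adjusted p 0.852 and 0.873. ENSDART00000015137 missed the threshold at high nickel and high cobalt, adjusted p 0.0958 and 0.0931. Levels near log2 5 and near 16 limit what can be measured of a change.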
